A study of Rattus norvegicus with 25 samples.

Results

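The dentate gyrus (DG) of unstressed control rats was compared between animals labelled low and high for anxiety-like behavior. The question was which transcripts differ with the behavioral score in animals not given the study's stressor. The members were the 6 control DG libraries of 25 libraries in the series, chosen by their labels alone: 3 labelled CTRLLO, from animals 2, 28 and 35, and 3 labelled CTRLHI, from animals 14, 17 and 32. All 6 came from adult male Sprague-Dawley rats that stayed in the home cage while other animals were held in 3 h of immobilization with predator scent. Like those animals, they went through the behavioral tests, with bright arenas and loud startle sounds, in the days before collection. Each library was poly-A RNA from punches of the left dorsal DG, 0.75 mm wide in 200 μm sections, collected on day 9 of the experiment, counted from the stress exposure of the other animals. By the labels, the controls spanned composite scores of 0 to 6 (average 3.67); no score per animal is given, so CTRLLO and CTRLHI divide a narrow range. One control DG sample, from an animal with a score of 0, had RNA of low quality, was extracted again and was left out by the authors because it stood apart in their principal component analysis. The sources do not name the animal; all 6 control DG libraries are used here, and the one that stood apart in these data is described below. The stress-exposed DG libraries (6, labelled STRESSLO and STRESSHI) and the basolateral amygdala (BLA) libraries of the same 6 control animals were used only to set the control values in context.

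The DG is the first relay of the hippocampus. Its granule cells carry the transcription factor Prox1, receive input from the entorhinal cortex, are held in check by GABA-releasing interneurons and project to CA3. New granule neurons are added there in adulthood and pass through a stage marked by doublecortin (Dcx), and the region is rich in receptors for glucocorticoids, serotonin and endocannabinoids. Differences between whole-tissue libraries do not distinguish fewer cells of a type from less RNA per cell.

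The libraries held 13487835 to 19135223 expected counts each, and granule cell transcripts were abundant in all 6. Levels are given here as TPM, a share of the transcripts in a library that is corrected for gene length. C1ql2, a secreted granule cell protein, lay between 284.5 and 504 TPM, Calb1 (calbindin) between 80.8 and 127 TPM and Prox1 between 29.9 and 95.5 TPM. The 16 names of the CA1 and CA3 list summed to 455 to 627 TPM against 1269 to 1782 TPM for the 18 names of the granule cell list, and Ttr, the main choroid plexus transcript, was at 0 in every control library.

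The library of animal 35 stood apart from the other 5. In a principal component analysis of log2(TPM + 1) over 13519 genes, PC1 held 47.4% of the variance and placed animal 35 at 51.5, with the other 5 libraries between −16.0 and −5.2. The number of genes over 2-fold away from the average of the remaining libraries was 927 for animal 35 and 148 to 201 for each of the others. Prox1 was 29.9 TPM in animal 35 and 63.0 to 95.5 TPM in the others, and Gad2, a GABA-synthesizing enzyme, was 24.4 TPM against 83.9 to 116 TPM, while Gad1, the other such enzyme, was 123 TPM within a range of 120 to 164 TPM. The 10-name blood list summed to 1009 TPM in animal 35 and 627 to 686 TPM in the others. ZNF260, a zinc finger gene, was at 0 in animal 35 and between 7.50 and 12.4 TPM in the others, and Igfbp2, a binding protein of insulin-like growth factors, was 10.04 TPM against 2.50 to 7.36 TPM.

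**Figure D1:**
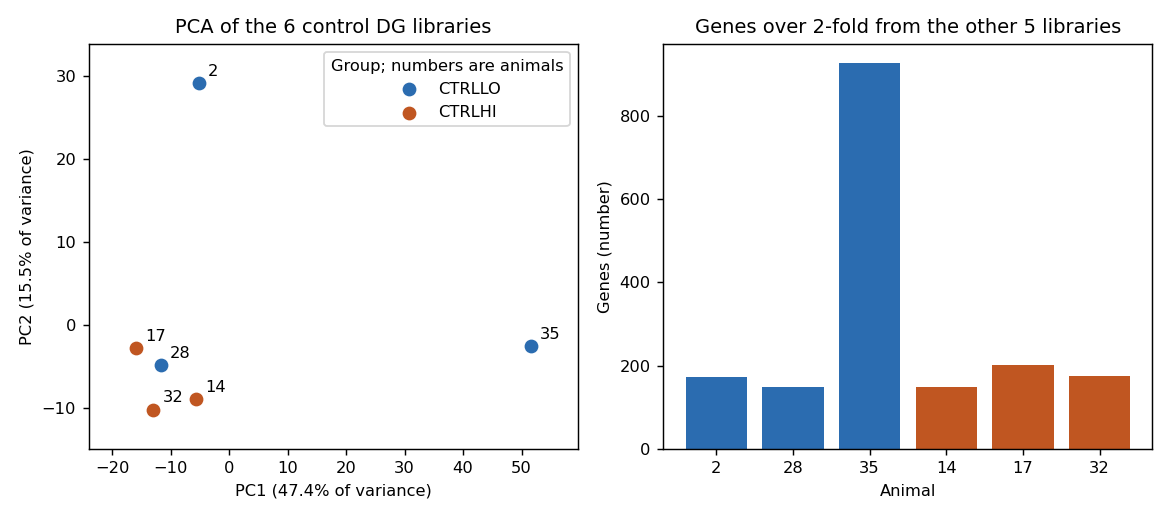
Left, the first and second principal components of log2(TPM + 1) in the 6 control DG libraries, with one point per animal and color for the label. Right, the number of genes over 2-fold away from the average of the remaining libraries, which was 927 in animal 35 and at most 201 in the rest.

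Every comparison was therefore made with 3 against 3 libraries and again with 2 against 3, without animal 35, and a difference is taken to hold only where both showed it. Where a gene passed in a single fit, the text says so. The fits share 5 libraries, so the second is a check and no replication. By edgeR's quasi-likelihood test with Benjamini-Hochberg adjustment, 0 of 13748 genes passed an adjusted p of 0.05 with all 6 libraries (0%), where the smallest adjusted p was 0.639. Without animal 35, 1 of 13962 genes passed (0.00716%), Car3, which is described further on. No gene passed in both. At an unadjusted p under 0.05 there were 499 genes (3.63%) with 6 libraries, 265 higher (1.93%) and 234 lower (1.7%) in CTRLHI. Without animal 35 there were 411 (2.94%), 250 higher (1.79%) and 161 lower (1.15%). In the same direction in both fits there were 249 of 13748 (1.81%), of which 158 were higher in CTRLHI (1.15%) and 91 lower (0.662%). The shares in the single fits, 3.63% and 2.94%, are below the 5% that an unadjusted threshold of 0.05 stands for, so the genes named from here on are an ordered description of the data and not a set of calls. With 1 library per animal, a p measures the spread between these animals. The 6-library count was 1640 without animal 28, 247 without animal 14 and 307 without animal 17, and the count shared by both fits was 434 without animal 28 and 112 without animal 2.

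DESeq2 on the same counts called 3 genes in both fits. Gypc, which encodes glycophorin C of the cell membrane, was 5.64, 7.01 and 5.86 TPM in CTRLLO animals 2, 28 and 35 and 11.6, 11.8 and 14.2 TPM in CTRLHI animals 14, 17 and 32. All 3 CTRLHI libraries lay above all 3 CTRLLO libraries, animal 35 included. The log2 fold change of CTRLHI against CTRLLO was 0.94 (SE 0.15) with 6 libraries and 0.99 (SE 0.16) without animal 35. The adjusted p was 0.785 and 0.456 by edgeR, and 0.00462 and 0.00381 by DESeq2.

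Olr1462, annotated as an olfactory receptor gene, had the opposite order, at 32.5, 38.6 and 16.4 TPM in CTRLLO and 11.7, 9.60 and 13.4 TPM in CTRLHI. The groups did not overlap, but animal 35 was closer to the CTRLHI animals than to animals 2 and 28. The log2 fold change was −1.38 (SE 0.26) with 6 libraries and −1.61 (SE 0.18) without animal 35, with an adjusted p of 0.785 and 0.0689 by edgeR and of 0.00462 and 2.41e-08 by DESeq2. Olfactory receptors form a large family of similar genes, so this value is uncertain, and read sharing within the family was not tested.

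The third DESeq2 call was SCCPDH. The annotation holds this name for 2 gene models, and the second model was at 0 in all 3 CTRLLO libraries and at 3.18, 3.35 and 7.22 TPM in CTRLHI. Its first model held 45.5, 41.6 and 42.9 TPM in CTRLLO and 41.1, 41.9 and 40.1 TPM in CTRLHI. Both models together gave 41.6 to 45.5 TPM in CTRLLO and 44.2 to 47.4 TPM in CTRLHI, so that the summed level differed less than that of the second model. How reads were divided between the models was not tested.

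Among genes with 1 model, a mean of at least 1 TPM and no overlap between the 3 and 3 libraries, 118 were higher and 58 lower in CTRLHI at an unadjusted p under 0.05 in both fits. Over all genes tested, the ranges of 3 and 3 libraries did not overlap for 1243 genes (9.04%), with CTRLHI above in 797 (5.8%) and below in 446 (3.24%), and such a gene has an exact two-sided permutation p of 0.1, the smallest that 3 against 3 allows. The 12 genes with the strongest evidence in each direction are described below, ordered by the larger of their 2 unadjusted p. Their adjusted p by edgeR was 0.785 with 6 libraries in all 24 cases. Without animal 35 it was 0.456 or higher, apart from Olr1462 (0.0689) and Car3.

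Dcx, a microtubule-binding protein of young migrating neurons, was 5.27, 6.22 and 4.18 TPM in CTRLLO and 7.77, 7.39 and 8.73 TPM in CTRLHI. Its log2 fold change was 0.55 (SE 0.12) with 6 libraries and 0.49 (SE 0.11) without animal 35. Every CTRLHI library was above every CTRLLO library, as the choice of these genes required.

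Kcnj2, Gabrg1 and Tmem2, which encode proteins of the cell membrane, were also among the 12 higher genes. Kcnj2, an inward rectifier potassium channel, was 6.50, 5.31 and 6.84 TPM in CTRLLO and 9.61, 12.1 and 11.9 TPM in CTRLHI (log2 fold change 0.75, SE 0.21, and 0.93, SE 0.20, without animal 35). Gabrg1, the gamma-1 subunit of the GABA-A receptor, was 21.2, 24.0 and 17.8 TPM against 34.5, 34.1 and 26.9 TPM (0.54, SE 0.14, and 0.51, SE 0.15). Tmem2, a cell-surface hyaluronidase, was 4.42, 4.45 and 4.10 TPM against 5.64, 6.68 and 6.61 TPM (0.47, SE 0.11, and 0.52, SE 0.10). For Kcnj2 and Tmem2 the difference was slightly larger without animal 35, and for Gabrg1 animal 35 was the lowest of the 6 libraries.

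Mal, a proteolipid of myelin, was 41.7, 50.7 and 35.0 TPM in CTRLLO and 54.7, 61.4 and 66.7 TPM in CTRLHI (0.45, SE 0.11, and 0.41, SE 0.11). Itgav, the alpha-V integrin subunit, was 12.5, 11.9 and 6.40 TPM against 15.7, 16.5 and 15.7 TPM (0.60, SE 0.18, and 0.41, SE 0.10). Its fold change with 6 libraries rested in part on animal 35, the lowest library. Cd93, a glycoprotein of endothelial cells, was low throughout, at 1.05 to 1.72 TPM in CTRLLO and 2.28 to 2.62 TPM in CTRLHI.

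The remaining genes of this direction were Diap2, a formin that nucleates actin filaments, Zfp57, a zinc finger protein that maintains imprints, Trappc8 of the TRAPP vesicle-tethering complex, and Tmtc4. Diap2 varied most within its groups, at 3.26, 1.01 and 1.23 TPM against 4.18, 6.57 and 9.31 TPM. Zfp57 was tighter, at 15.6 to 19.0 TPM against 22.7 to 25.3 TPM, with a log2 fold change of 0.39 in both fits (SE 0.10 and 0.10). Trappc8 had the smallest fold change of the 12, 0.32 (SE 0.09) and 0.28 (SE 0.08).

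Among the genes lower in CTRLHI, Snai1, a transcriptional repressor, was 3.78, 3.65 and 3.37 TPM in CTRLLO and 1.84, 1.54 and 1.80 TPM in CTRLHI, with a log2 fold change of −1.12 (SE 0.23) and −1.08 (SE 0.27) without animal 35. PSMG3, a chaperone of proteasome assembly, was 37.8, 29.7 and 26.6 TPM against 20.7, 21.2 and 17.8 TPM (−0.72, SE 0.15, and −0.74, SE 0.15). Animal 35 had the lowest CTRLLO value of both genes, and their fold changes hardly moved without it. Cby3, of the chibby family, was 2.43 to 3.08 TPM against 0.72 to 1.31 TPM.

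Several abundant short transcripts were in this group. Pin4, a prolyl isomerase, was 166, 174 and 173 TPM in CTRLLO and 125, 123 and 146 TPM in CTRLHI (−0.48, SE 0.13, and −0.37, SE 0.11). Ranbp1, a partner of the nuclear transport GTPase Ran, was 150.1, 141 and 153 TPM against 112, 123 and 119 TPM (−0.42, SE 0.12, and −0.29, SE 0.08). Myl12b, a regulatory light chain of myosin, was 477 to 522 TPM against 393 to 440 TPM, and Ndufa3, a subunit of respiratory complex I, was 1039 to 1256 TPM against 879 to 899 TPM. These differences were small, at less than 1.5-fold, and the libraries within a group close. No overlap was a condition for naming these genes and is no result for them. Wdr27, Tnfrsf25 (a death receptor) and Slc26a8 (an anion transporter) completed the 12.

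**Figure D2:**
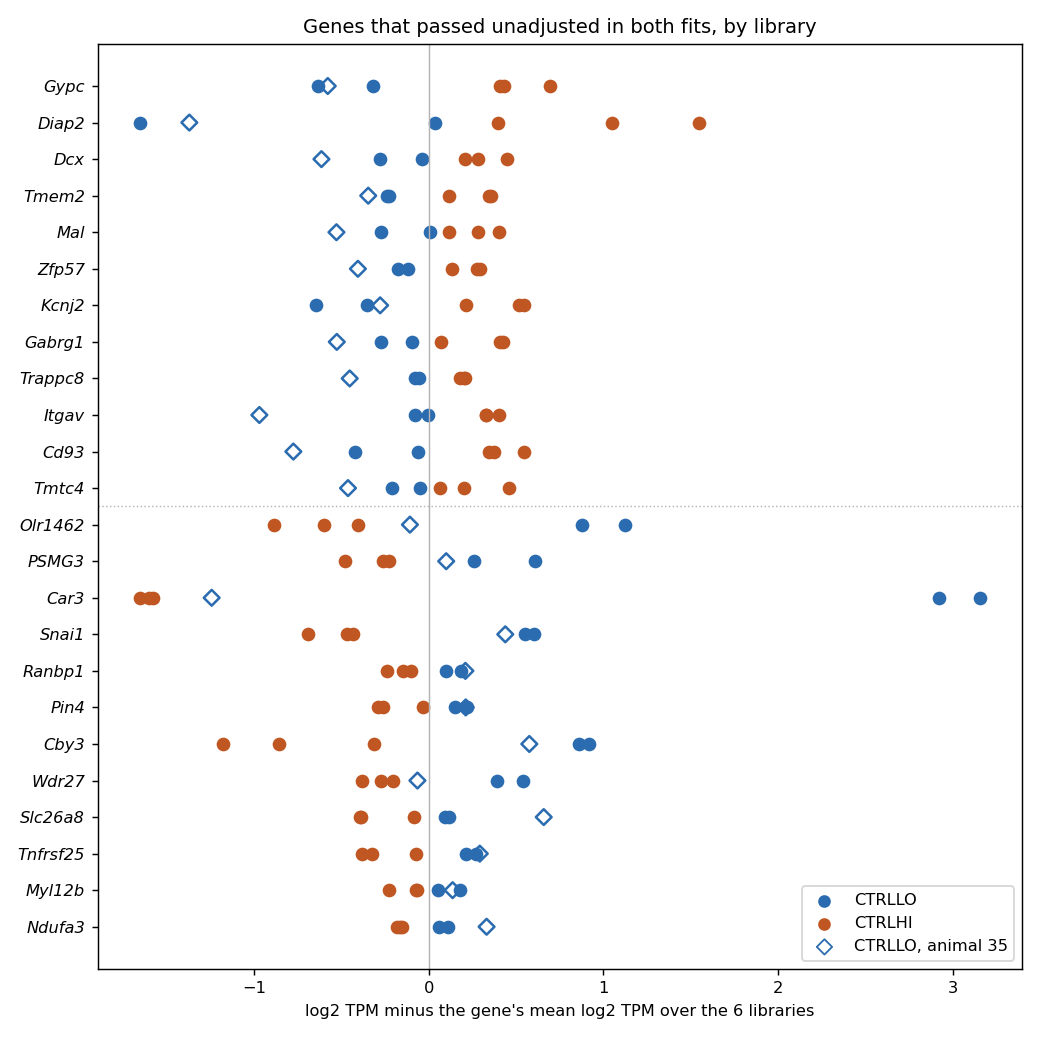
Log2 TPM of the 24 named genes in each control library, relative to the gene's mean over the 6 libraries, with CTRLLO in blue, CTRLHI in orange and animal 35 as an open diamond. In each gene the orange and blue points do not overlap, which was a condition for naming it, and for Car3 animal 35 sits with the CTRLHI animals.

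Gene length moved with the groups and should be set beside these results. When genes were divided into 5 equal groups by length, the median log2 fold change with 6 libraries went from −0.12 in the shortest (median 906 bases) to 0.10 in the longest (median 4535 bases). Without animal 35 it went from −0.04 to 0.04. Measured within a library, the longest minus the shortest of these groups was −0.37 on the log2 scale in animal 35, −0.01 in animal 2 and 0.06 in animal 28, and 0.11, 0.13 and 0.07 in CTRLHI animals 14, 17 and 32. The CTRLHI libraries were thus above the CTRLLO libraries also when animal 35 is set aside, by a small margin. Of the 249 genes shared by both fits, the longest group held 51 with CTRLHI above and 2 with CTRLHI below, and the shortest group 18 and 36. The median length was 2572 bases for the 158 higher genes, 1548 bases for the 91 lower genes and 2091 bases over all genes tested. The part of length in the single-gene differences was not tested.

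**Figure D3:**
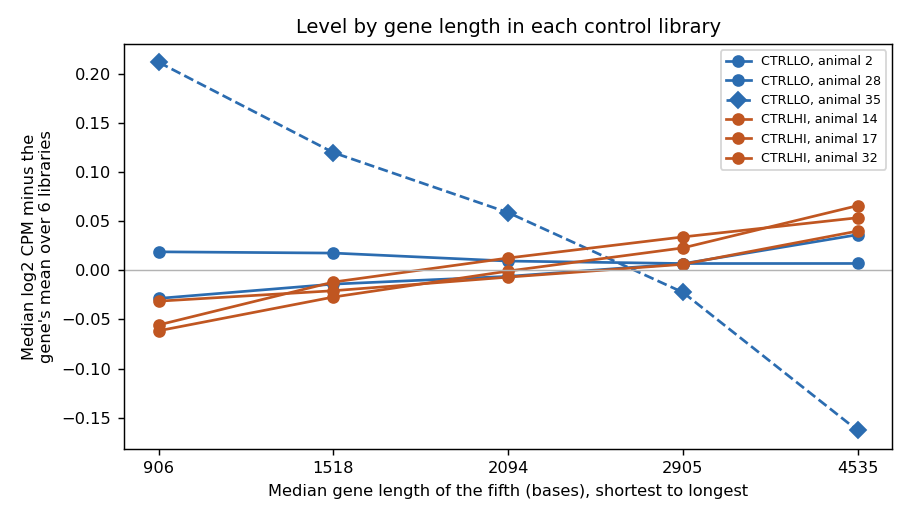
Median log2 CPM of genes in 5 length groups, relative to each gene's mean over the 6 libraries, with one line per control library. Animal 35 falls from 0.21 to −0.16 from the shortest to the longest genes, and the other libraries stay within 0.07 of 0.

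Respiratory chain and ribosomal protein genes, which are mostly short, were added after these values were seen. Of 73 nuclear genes of the respiratory chain, 69 had a log2 fold change below 0 with 6 libraries and 59 without animal 35, with medians of −0.23 and −0.07. Of 65 cytosolic ribosomal protein genes, 58 and 53 were below 0, with medians of −0.25 and −0.09. Over all genes the median was 0.01 in both fits, and 51.0% and 52.1% lay above 0. At the unadjusted threshold in both fits, Ndufa3, Ndufa1 and Ndufb3 of complex I and 2 ribosomal protein genes were lower in CTRLHI, which is 4.11% and 3.08% of those tested beside 0.662% of all genes, in lists chosen after values were seen, and the members of both groups were otherwise below the threshold in one fit or both.

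The 27 gene lists for cell types, receptors and stress pathways gave few members. Of 360 listed genes tested, 14 (3.89%) passed the unadjusted threshold in both fits, beside 1.81% of all genes, and all 14 were higher in CTRLHI. Their median length was 5019 bases, and 11 were longer than the median of all genes tested. In 12 of the 14 the 3 and 3 libraries did not overlap, beside 218 of all 249 genes that passed in both fits.

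Transmitter and cannabinoid receptor genes were 6 of the 14. Of 12 GABA-A receptor subunits tested, 2 passed, Gabrg1 among them, 9 had a log2 fold change above 0 with 6 libraries and 10 without animal 35, and the median was 0.32 and 0.16. The median without animal 35 was 0.02 when animal 2 was also left out and 0.32 when animal 28 was.

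Of 22 glutamate receptor genes, 19 were above 0 with 6 libraries and 18 without animal 35, and the median fell from 0.23 to 0.08. Gria4, an AMPA receptor subunit, was 22.7, 26.9 and 18.0 TPM in CTRLLO and 31.4, 28.5 and 32.6 TPM in CTRLHI (0.39, SE 0.12, and 0.33, SE 0.11). Grm3, a metabotropic receptor that lowers transmitter release, was 17.9, 21.7 and 8.66 TPM against 21.2, 23.7 and 26.4 TPM, with overlap. The obligatory NMDA subunit Grin1 was 308 to 367 TPM in all 6 libraries, with a log2 fold change of −0.08 and −0.05.

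In the list of CRH, serotonin, adrenergic and dopamine receptors, 18 of 21 genes were above 0 in each fit, with medians of 0.18 and 0.17, and Htr3a alone passed in both. This serotonin-gated cation channel was 2.37, 2.36 and 2.25 TPM in CTRLLO and 3.72, 3.59 and 4.08 TPM in CTRLHI. The log2 fold change was 0.63 (SE 0.20) with 6 libraries and 0.70 (SE 0.23) without animal 35, and the values within each group were close. Htr1a, the inhibitory serotonin receptor with the highest level here, had a log2 fold change of 0.09 and −0.09, and Crhr1, the CRH receptor, of 0.73 and 0.57 without passing in either fit. Among 10 genes of opioid and cannabinoid signaling, Cnr1, the presynaptic cannabinoid receptor, was 71.1, 73.2 and 57.7 TPM in CTRLLO and 91.0, 81.7 and 80.5 TPM in CTRLHI (0.26, SE 0.10, and 0.25, SE 0.10).

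The cell type lists held at most 2 such members each. Of 11 neurogenesis genes tested, Dcx alone passed. There were 9 above 0 with 6 libraries and 11 without animal 35, but Sox11, Igfbpl1 and Neurod1, which also mark young granule neurons, had log2 fold changes of 0.42 and 0.12, 0.29 and 0.14, and 0.00 and 0.03. The proliferation genes Mki67 and Top2a were at 1.43 to 4.92 and 0.24 to 0.64 TPM and did not pass. None of 16 granule cell genes passed in both fits, with medians of 0.14 and 0.07. Of 13 interneuron genes, Reln, a secreted matrix protein, passed (10.1 to 18.1 TPM in CTRLLO, 19.3 to 24.5 TPM in CTRLHI). Gad2 was 83.9, 88.4 and 24.4 TPM in CTRLLO and 106, 116 and 107 TPM in CTRLHI, and passed only without animal 35 (0.36, SE 0.08), while Gad1 had a log2 fold change of 0.05 and 0.09.

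The glial and vascular lists differed among themselves. Of 16 myelin genes 13 were above 0 with 6 libraries and 14 without animal 35 (medians 0.10 and 0.18), with Mal alone past the threshold in both fits, and MBP, a main myelin protein, at 0.00 and 0.10. The myelin median without animal 35 was −0.02 when animal 28 was also left out. Aqp4, the water channel of astrocyte endfeet, was 93.6, 86.5 and 62.3 TPM in CTRLLO and 108, 134 and 96.4 TPM in CTRLHI, while Gfap was not different at the threshold (0.16 and 0.17). Of 9 genes of oligodendrocyte progenitors, 7 were above 0 with 6 libraries and 5 without animal 35, and Pdgfra and Vcan passed with log2 fold changes of 0.33 and 0.20 and of 0.40 and 0.28. Kdr, a receptor of vascular endothelial growth factor, was 1.59, 2.04 and 1.92 TPM against 2.72, 3.65 and 2.34 TPM. Of 12 endothelial and pericyte genes, 11 were above 0 in each fit. Their sum was 156, 129 and 118 TPM in CTRLLO and 141, 187 and 126.5 TPM in CTRLHI. The groups thus overlapped, and CTRLHI animal 17 was the highest. Of 13 microglia genes 5 and 7 were above 0, with medians of −0.01 and 0.01. No gene of the microglia, mossy cell, CA1 and CA3, or thalamus and habenula lists passed in both fits, nor did any of the 4 blood genes tested. The leptomeningeal genes, which mark tissue at the edge of a punch, summed to 162, 102 and 194 TPM in CTRLLO and to 135, 221 and 99.1 TPM in CTRLHI. Most of each sum was Ptgds, at 144, 90.5 and 168 TPM in CTRLLO and 115, 183 and 82.0 TPM in CTRLHI. Of the 12 leptomeningeal genes tested, 7 were above 0 with 6 libraries and 11 without animal 35, with medians of 0.22 and 0.65. The part of these genes in the glial and vascular differences was not tested.

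**Figure D4:**
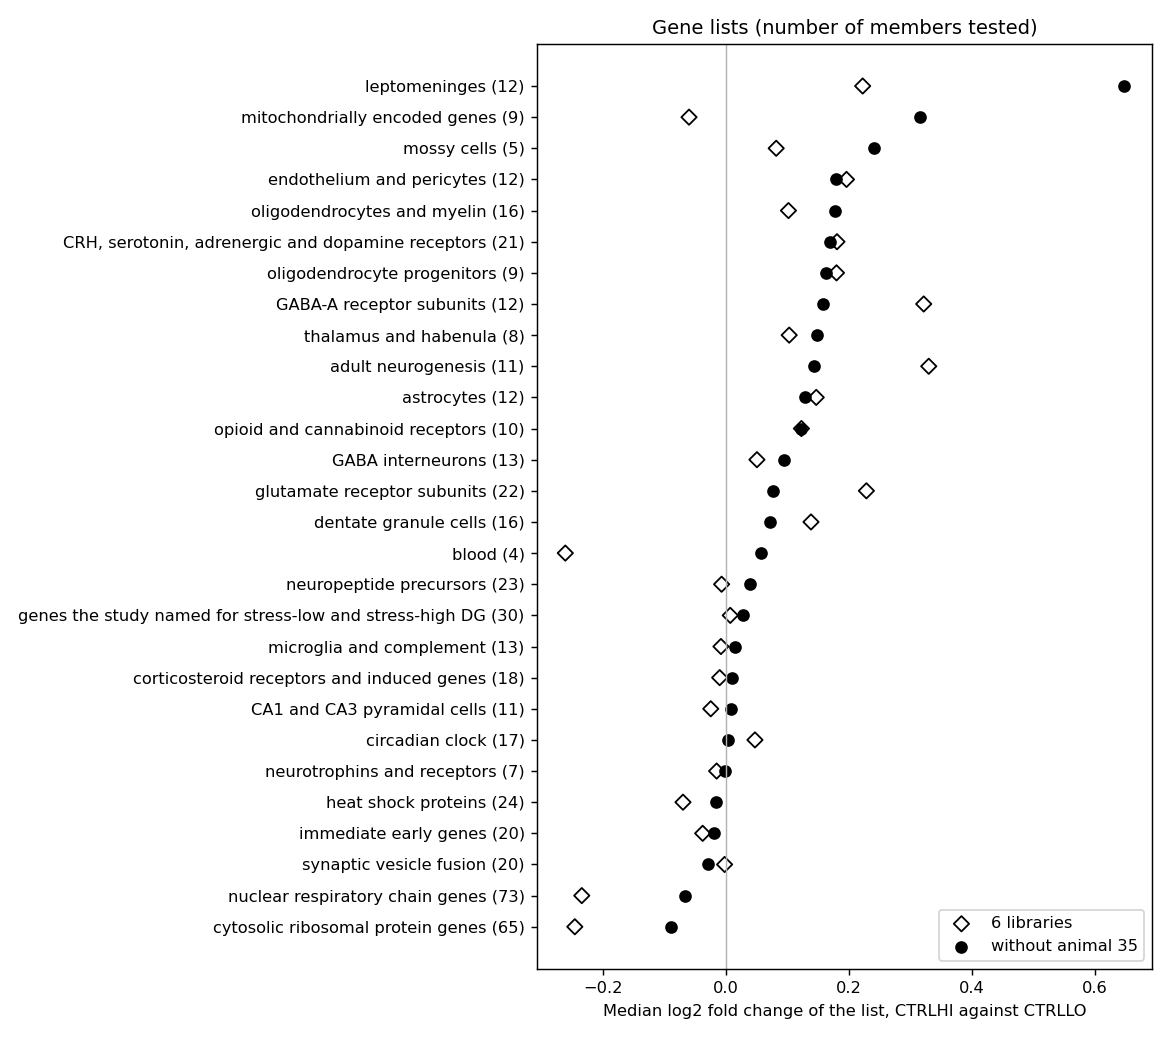
Median log2 fold change of CTRLHI against CTRLLO for each list with at least 4 genes tested, with 6 libraries as open diamonds and without animal 35 as filled circles. The last 2 lists were added after values were seen. Without animal 35 the GABA-A median goes from 0.32 to 0.16 and the glutamate receptor median from 0.23 to 0.08, and the blood list goes from −0.26 to 0.06.

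Genes of stress and activity did not separate the control labels. None of 20 immediate early genes passed in either fit, with 6 above 0 with 6 libraries and 5 without animal 35. Fos was 9.32, 4.51 and 3.45 TPM in CTRLLO and 7.09, 7.30 and 3.04 TPM in CTRLHI, and Arc was 44.9, 30.8 and 23.6 TPM against 35.7, 33.1 and 25.1 TPM. None of 18 gene models for corticosteroid receptors and their induced genes passed in both fits. Fkbp5, a glucocorticoid-induced co-chaperone, was 48.1, 47.3 and 33.2 TPM in CTRLLO and 39.8, 45.0 and 35.3 TPM in CTRLHI. Its log2 fold change was −0.16 (SE 0.12) and −0.24 (SE 0.11), with an unadjusted p of 0.239 and 0.0533 by edgeR.

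No gene of the neurotrophin, clock, heat shock or vesicle fusion lists passed in both fits. Bdnf was 30.0, 27.9 and 33.3 TPM in CTRLLO and 27.0, 32.4 and 36.8 TPM in CTRLHI. Of 23 neuropeptide genes, the processing enzyme Pcsk1 alone passed, at 8.19, 6.95 and 7.43 TPM in CTRLLO and 10.9, 10.7 and 9.85 TPM in CTRLHI (0.40, SE 0.13, and 0.49, SE 0.12). The mitochondrially encoded genes had 3 of 9 above 0 with 6 libraries and 9 of 9 without animal 35, and summed to 75673, 91510 and 124852 TPM in CTRLLO and 121204, 90580 and 83199 TPM in CTRLHI, so that their order followed single libraries.

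Cartpt, Pdyn, Rnf112 and Tbx19, which the study followed in stress-exposed animals, did not pass the unadjusted threshold between the control labels in either fit. Cartpt, a neuropeptide precursor, was 4.76, 5.04 and 4.33 TPM in CTRLLO and 4.14, 8.37 and 2.68 TPM in CTRLHI, with a log2 fold change of 0.01 (SE 0.40) and 0.04 (SE 0.46), and its sign turned under several settings. Side by side, STRESSLO libraries held 5.28, 1.47 and 2.80 TPM and STRESSHI libraries 14.7, 14.4 and 17.1 TPM, so that none of the 6 controls reached the STRESSHI values. The study picked Cartpt for a STRESSHI level above controls and STRESSLO in DG libraries of this series. This order is part of that choice and no separate result. Pdyn, the dynorphin precursor of granule cells, was 199, 177 and 121 TPM in CTRLLO and 125, 119 and 216 TPM in CTRLHI. Rnf112 overlapped as well, at 267 to 276 TPM against 254 to 281 TPM. Tbx19, a T-box transcription factor, was 3.51, 3.35 and 1.82 TPM in CTRLLO and 2.83, 2.69 and 2.73 TPM in CTRLHI, so that animals 2 and 28 were above and animal 35 below the CTRLHI animals. Its log2 fold change was −0.11 (SE 0.23) with 6 libraries and −0.30 (SE 0.20) without animal 35, where the groups did not overlap and the exact two-sided permutation p was 0.2, the smallest that 2 against 3 allows. In a list of 30 gene models taken from those the study named for the stress groups, which it chose on libraries of this series, 0 passed in both fits and the median was 0.01 and 0.03. That list does not hold all such genes: KPTN, also named by the study and not on it, was 43.2, 36.8 and 29.0 TPM in CTRLLO and 27.9, 31.1 and 26.7 TPM in CTRLHI, and passed the unadjusted threshold in both fits with overlapping groups (−0.41, SE 0.12, and −0.47, SE 0.11).

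The control difference was then set against that of the stress-exposed animals, which came from other libraries. Of the 249 genes that passed in both control fits, 88 (35.3%) had the same direction in STRESSHI against STRESSLO, beside 41.4% of all genes. There 15 (6.02%) passed an unadjusted p of 0.05 by edgeR, 4 in the same and 11 in the opposite direction, beside 1.8% of all genes. That p came from a fit of all 12 DG libraries, whose spread estimate includes the controls on which the 249 genes were picked. The share that passed there is therefore not independent of that choice. The interaction of score and stress, (CTRLHI minus CTRLLO) minus (STRESSHI minus STRESSLO), had 0 of 14089 genes at an adjusted p under 0.05 by edgeR with all 12 DG libraries (933 unadjusted, 6.62%) and 6 by DESeq2. Without animal 35, 1 of 14287 passed (0.007%), Olr1462, with 707 unadjusted (4.95%), and 10 passed by DESeq2. Its STRESSLO libraries were at 10.04, 7.60 and 12.6 TPM and its STRESSHI libraries at 16.4, 15.3 and 17.3 TPM, so the high label went with the lower level in controls and with the higher level after stress. The interaction was −2.09 (SE 0.34) with an adjusted p of 0.459 with all libraries and −2.33 (SE 0.26) with an adjusted p of 0.0141 without animal 35, so that the call held in one fit only.

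Dcx had an interaction of 0.79 (SE 0.17) and 0.72 (SE 0.17) without animal 35, with adjusted p of 0.68 and 0.893 by edgeR. Its levels were 7.24, 9.97 and 8.77 TPM in STRESSLO and 7.33, 6.78 and 7.82 TPM in STRESSHI, close to the CTRLHI values, and the 3 CTRLLO libraries were the lowest of the 12. Gypc showed a like order, with 9.14 to 15.5 TPM in STRESSLO and 10.96 to 18.1 TPM in STRESSHI against at most 7.01 TPM in CTRLLO. Dcx and Gypc were named for a control difference without overlap in these same libraries. That difference is part of the interaction and of this order. KPTN, an actin-associated protein, had an interaction of −0.82 (SE 0.15) and −0.89 (SE 0.14) and did not pass after adjustment (0.459 and 0.238 by edgeR).

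The same 6 animals gave BLA libraries, so the DG difference was also compared with the difference in the BLA within animals. The authors left out a control BLA sample that stood apart in their principal component analysis, and the paper does not name the animal. All 6 BLA libraries were used here. In the BLA, Pdyn was 52.1 TPM in animal 2 and 4.85 to 16.0 TPM in the other control animals compared. Without animal 2, the BLA log2 fold change went from 0.04 to −0.05 for Gypc and from −0.19 to −0.30 for Dcx. Of 13533 genes, 0 passed the adjusted threshold by limma on the within-animal difference of log2 CPM (773 unadjusted, 5.71%), and 0 of 13731 without animal 35 (654, 4.76%). Gypc was 10.4, 9.08 and 11.9 TPM in the BLA of CTRLLO animals and 12.8, 8.85 and 9.85 TPM in that of CTRLHI animals, and Dcx 10.6, 11.3 and 10.9 against 9.42, 7.05 and 12.0 TPM, so that the groups overlapped in the BLA for both. The DG minus BLA difference was not past the adjusted threshold for either, at 0.91 (SE 0.19, adjusted p 0.75 by limma) and 0.76 (SE 0.18, adjusted p 0.75 by limma). In the BLA by itself, 0 of 14861 genes passed after adjustment by edgeR (803 unadjusted, 5.4%), and without animal 35 1 of 15134, Car3 (0.00661%, with 658 unadjusted, 4.35%). Stc1, a secreted glycoprotein hormone, was among the genes named by that comparison, at 2.21, 2.79 and 1.88 TPM in the DG of CTRLLO animals and 3.81, 3.62 and 4.28 TPM in that of CTRLHI animals, and at 4.94, 3.40 and 4.17 against 2.25, 2.40 and 3.10 TPM in the BLA. Its groups did not overlap in either region and had opposite orders, with a DG minus BLA difference of 1.34 (SE 0.20, adjusted p 0.75 by limma) and 1.27 without animal 35 (SE 0.22, adjusted p 0.904 by limma). Of 244 DG genes also tested in the BLA, 145 (59.4%) had the same direction there, beside 51.5% of all genes. Of these, 16 single-model genes had it with an unadjusted p under 0.05 by edgeR. Over all genes, 5.4% passed in the BLA in either direction. The share passing in the same direction was not computed, so the 16 have no like share beside them and are not read as many or few.

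Car3, a cytosolic carbonic anhydrase, accounted for the single call without animal 35, and its level was that of the animal in both regions. In the DG it was 16.3 and 13.8 TPM in CTRLLO animals 2 and 28 but 0.77 TPM in CTRLLO animal 35, and 0.61, 0.58 and 0.60 TPM in CTRLHI. Leaving out animal 35 therefore removed the one low CTRLLO library. The log2 fold change was −4.61 (SE 0.23, adjusted p 0.000177 by edgeR) without animal 35 and −4.07 (SE 0.90, adjusted p 0.785 by edgeR) with it.

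In the BLA of the same animals Car3 was 17.0 and 16.1 TPM in animals 2 and 28, 2.11 TPM in animal 35 and 1.47 to 1.88 TPM in CTRLHI. The low value of animal 35 was thus seen in both regions, in separate libraries. Among stress-exposed animals the DG held 15.2, 18.0 and 29.3 TPM in animals 20, 33 and 34 and 0.36 to 0.76 TPM in animals 7, 19 and 22, and animal 20 is labelled STRESSHI while 33 and 34 are labelled STRESSLO. The 12 DG libraries thus fell into 5 at 13.8 TPM or above and 7 at 0.77 TPM or below, with both labels on each side among stressed animals.

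Slc39a12, a zinc transporter, had the same kind of pattern and was named after its values were seen. It was 0.94, 0.81 and 0.34 TPM in the DG of CTRLLO animals and 0.57, 4.86 and 3.49 TPM in that of CTRLHI animals 14, 17 and 32. In the BLA it was 1.28, 0.81 and 1.03 TPM against 0.92, 5.68 and 6.92 TPM, so that animals 17 and 32 were high and animal 14 low in both regions. Stress-exposed animals 19, 20 and 22 were also high in both regions, at 3.27 to 7.94 TPM in the DG and 5.24 to 10.6 TPM in the BLA. Fam129c was 2.44 and 2.67 TPM in the DG of animals 17 and 32 and at most 0.44 TPM in the other 10 DG libraries.

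**Figure D5:**
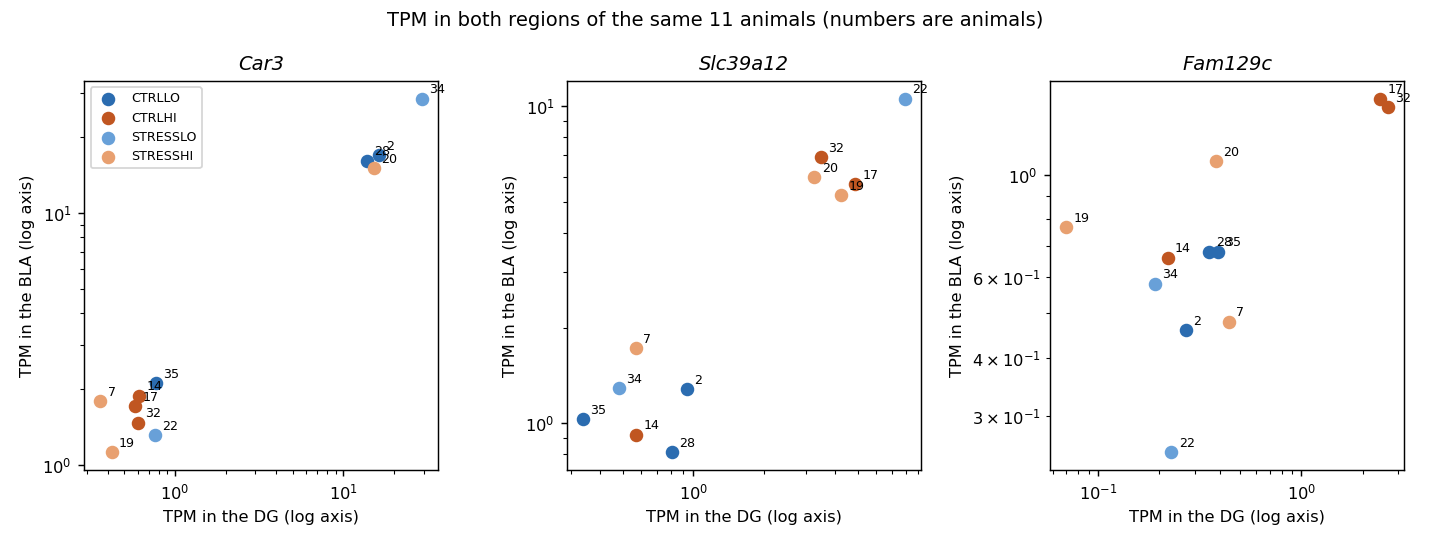
TPM of Car3, Slc39a12 and Fam129c in the DG and the BLA of the 11 animals with both libraries, on log axes, with color for the label and numbers for animals. Car3 and Slc39a12 each split into a low and a high set of animals that is the same in both regions, with CTRLLO animal 35 on the low side for Car3 and CTRLHI animal 14 on the low side for Slc39a12.

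Over 38 genes that spanned at least 4-fold between animals in both regions, the BLA library most correlated with a DG library was that of the same animal in 10 of 11 cases, animal 35 included. For animal 17 the best match was animal 22 (r = 0.377 across genes, against 0.35 with its own BLA library).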

How the data were processed

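Poly-A RNA-seq libraries, 1 per animal and region, were grouped by the CTRLLO, CTRLHI, STRESSLO and STRESSHI labels. For each gene and library the authors deposited an expected count from RSEM 1.3.1 (estimated, and not whole for 5.67% to 6.12% of values), a TPM value, and a length and effective length in bases, after alignment by STAR 2.6.0a (Rn5, Ensembl 75). The deposited values of all libraries of a region stand in one table.

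After rounding, the expected counts were analysed in edgeR 4.0.16 by the quasi-likelihood test (TMM scaling, filterByExpr at its minimum count of 10, Benjamini-Hochberg adjustment), with all 6 control libraries and without animal 35. EBSeq, the study's test, was not used here. The alternatives were DESeq2 1.42.0, RLE scaling, no filter, all DG libraries in the fit, voom with library weights, limma 3.58.1 on log2(TPM + 1) or log2(TPM + 0.1) at a mean TPM of at least 0.5 or on all genes, the replicate number as a block, animal number above 20 as a covariate, and leaving out each library. The region comparison used limma on the DG minus BLA difference of log2 CPM (prior count 2). The BLA library of animal 35 was taken as a control by its library name, although its treatment field differs. The edgeR, DESeq2, voom and limma fits and the score by stress interaction were tested on simulated counts with known changes. The region comparison and the list counts were not.

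Standard errors of log2 fold changes had a median of 0.16 with 6 libraries and 0.13 without animal 35. Named genes were the 12 per direction with the smallest larger p of the fits (unadjusted p under 0.05 in both, same direction, no overlap, mean TPM of at least 1, 1 identifier per name), the list members past that threshold in both fits, Cartpt, Pdyn, Rnf112 and Tbx19, genes in which animal 35 was farthest from the others, and the first 3 per interaction; markers and further listed genes were named after their values were seen. Members and lists were chosen with earlier results of these data known. Names held by more than 1 identifier (558 tested genes) may share reads. Coordinates and sequences are not given here. A few listed genes are not reported here.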

Additional observations from a re-analysis of the deposited data

Results flagged for a closer look

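Olr1462 differed in its high against low difference between control and stress-exposed DG libraries when animal 35 was left out, with a log2 difference of differences of −2.33 (SE 0.26, adjusted p 0.0141 by edgeR). With all 12 DG libraries it was −2.09 (SE 0.34, adjusted p 0.459 by edgeR). The DG libraries of animals 2 and 28, at 32.5 and 38.6 TPM, were the highest of the 12, and the other 10 lay between 7.60 and 17.3 TPM. In the BLA the gene was at 0.58 to 2.46 TPM in the same 6 animals. The part of read sharing among olfactory receptor genes was not tested. Groups of 3 libraries are too small for a test of single outlying libraries, so none was made.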

How the results depend on the processing

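The counts of genes at an adjusted p under 0.05 moved with the tool. With all 6 control libraries (0 by edgeR) there were 3 by DESeq2, 1 by voom with library weights, and 1, 3 and 1 by limma on log2(TPM + 1), log2(TPM + 0.1) and log2(TPM + 1) over all genes, and 0 to 1 when 1 library was left out. Without animal 35 (1 by edgeR) there were 5 by DESeq2, 4 with no filter, 5, 6 and 3 by the same limma settings, 5 with the replicate block, and 1 to 5 when a further library was left out. In both fits together (0 by edgeR) there were 3 by DESeq2, 1, 2 and 1 by limma, and 0 to 1 when a library was left out. An unnamed gene that limma called in both fits had at most 2.44 expected counts.

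At an unadjusted p under 0.05, the 499 genes of the 6-library fit became 1175 with all DG libraries in the fit, 813 with voom weights (where animal 35 had a weight of 0.235), 264 with animal number above 20 as a covariate and 247 to 1640 when 1 library was left out, with the highest count without animal 28. The 411 genes without animal 35 became 246 by DESeq2 and 286 to 681 when a library was left out. The 249 shared genes became 155 by DESeq2 and 112 to 434 when a library was left out; leaving out CTRLLO replicate 3, animal 35 itself, gives no separate value here.

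For the score by stress interaction, adjusted calls were 6 by DESeq2 and 0 to 1 when a library was left out, and the 933 unadjusted genes became 1498 with the replicate block and 535 to 2144. Without animal 35 adjusted calls were 10 by DESeq2, 2 with no filter and 0 to 2, and the 707 unadjusted genes became 475 to 977. For the region comparison, adjusted calls were 3 on log2(TPM + 1) and 0 to 1, with 429 to 1496 unadjusted; without animal 35 they were 0 to 1, with 503 to 1079 unadjusted.

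Same-numbered libraries did not deviate together (r = −0.0364, −0.0686 and −0.0282 across genes), and the other pairs lay between −0.0701 and 0.104. Deviations from a mean of 3 libraries sum to 0 within a group, so these values cannot show whether the numbers pair the libraries. With the replicate block the unadjusted counts were 574 with 6 libraries, 498 without animal 35 and 195 shared.

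Cartpt changed sign, with both fits near 0. With 6 libraries it was −0.18 with voom weights, −0.022, −0.050 and −0.022 by the limma settings, −0.081 with the replicate block, −0.24 with the animal number covariate and −0.50 to 0.32 when a library was left out. Without animal 35 it was −0.18 with voom weights, −0.070, −0.11 and −0.070 by limma, −0.15 with the covariate and −0.47 to 0.35 when a library was left out. Tbx19 ranged from −0.30 to 0.0050 when a library was left out, the latter without animal 2. The Car3 call without animal 35 was lost with all DG libraries in the fit (−4.61, adjusted p 1.0 by edgeR). Over all values and settings compared, 2111 kept direction and side. The 10 that passed a threshold only under an alternative were of Gypc, Olr1462 and Car3. Those that moved by more than the spread were the gene counts above, and no single-gene or list value. The causes were not tested.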
